A study of Mus musculus with 2 samples.

Results

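Cytotoxic granule and CCL chemokine genes are described here in T cells that have, or had, interleukin 17 expression. The set was chosen by gene symbol and holds 9 of the 32285 genes counted. Of these, 6 are granule, protease or receptor genes of killer cells (Nkg7, Gzma, Gzmb, Prf1, Ctsw and Klrd1) and 3 are chemokines (Ccl3, Ccl4 and Ccl5).

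The data are 2 single-cell 3′ RNA libraries of CD4+ YFP+ cells sorted at peak disease after immunisation with MOG, a myelin antigen, in complete Freund's adjuvant, which gives mice experimental autoimmune encephalomyelitis (EAE). One genotype, Il17Cre/R26YFP, is the control, and the other, Il17Cre/Id2f/f/R26YFP, is called Id2-deficient, with 1 library each. Mice of both genotypes carry Cre driven from Il17, which switches on YFP and, in the Id2f/f mice, acts on the floxed Id2 alleles, so YFP marks a history of interleukin 17 expression and not current expression. The labels call the cells TH17 and differ on the tissue, naming spleen in the protocol, spleen and lymph node in the tissue field and DLN in the titles; the age of the mice, their number per library and the floxed exons are not given in the sources used here.

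Killer lymphocytes store perforin, which forms pores, and granzymes, proteases that enter the target cell, in secretory granules. NKG7 is a membrane protein of the granules, and cathepsin W is a protease that killer lymphocytes express. The CD94 chain encoded by Klrd1 pairs with NKG2 proteins at the surface. CCL3, CCL4 and CCL5 are chemokines that effector T cells and NK cells release, and that act on chemokine receptors such as CCR1 of other leukocytes. These genes are best known from NK cells and CD8 T cells, but CD4 T cells with cytotoxic features and γδ T cells express some of them too. Id2 keeps E-protein transcription factors from binding DNA and is needed for NK cells and for many effector T cells.

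T cells were compared, meaning barcodes with at least 200 genes, at most 10% of their UMIs (counted RNA molecules) from mitochondrially encoded (mt-) genes, and at least 3 UMIs of 9 T cell receptor and CD3 genes. This left 4784 control cells with 32397946 UMIs and 1874 Id2-deficient cells with 13823789 UMIs, at medians of 5476 and 6392.5 UMIs per cell. The median mt- share was 1.75% in control and 4.18% in Id2-deficient cells, and the gene and mt- limits removed 12 control and 525 Id2-deficient barcodes and the T cell criterion another 141 and 60. Only 3 barcode sequences occurred in both libraries. The targeted gene, Id2, had 10916 control and 170 Id2-deficient UMIs, or 337 and 12.3 counts per 1000000 UMIs (CPM). Reads come from the 3′ end, and whether the deletion takes it out is not known from the labels. The sorted marker Cd4 had a UMI in 56.0% and 72.5% of cells, while Trdc, of the γδ T cell receptor, had one in 18.4% and 8.91% and Cd8b1, of the CD8 receptor, in 3.09% and 3.47%. At least 1 of 8 NK cell markers had a UMI in 425 of the 4784 control and 209 of the 1874 Id2-deficient cells, a larger share in the latter. These were UMIs of Fcer1g (375 and 79), Tyrobp (295 and 51), Klrb1c (223 and 226), Klrc2 (138 and 32) and Klre1 (92 and 4), while the defining receptor gene Ncr1 had 2 and 0 and Klra4 and Klra8 had 0 in both libraries. Each genotype has a single library, so differences between genotypes have no replicates and no test was run, and each 95% interval covers counting error only. In sums over a library, fewer cells of a type and less RNA per cell cannot be told apart.

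The promoters are shown because RUNX and T-box factors and the E proteins that Id2 holds back are known regulators of killer-cell genes. Of the 9 genes, 5 had an entry in the RefSeq promoter table (GRCm38.p6). The 250 bases before the annotated start are printed for the 4 of them with enough UMIs to compare, 5′ to 3′ along the gene's own strand. Capitals mark the letters TGTGGT, the core that RUNX factors recognise, or its reverse complement. Each motif was searched on both strands, and no match overlapped a match of another motif. The windows are chr7:43436888-43437137 on the plus strand for Nkg7, chr13:113100982-113101231 on the minus strand for Gzma, chr14:56262335-56262584 on the minus strand for Gzmb and chr10:61297586-61297835 on the plus strand for Prf1.

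Nkg7: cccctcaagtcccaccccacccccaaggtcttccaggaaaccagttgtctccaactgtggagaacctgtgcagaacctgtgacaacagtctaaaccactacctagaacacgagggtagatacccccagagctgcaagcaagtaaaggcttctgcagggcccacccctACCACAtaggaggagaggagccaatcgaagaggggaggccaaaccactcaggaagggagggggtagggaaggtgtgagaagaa

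Gzma: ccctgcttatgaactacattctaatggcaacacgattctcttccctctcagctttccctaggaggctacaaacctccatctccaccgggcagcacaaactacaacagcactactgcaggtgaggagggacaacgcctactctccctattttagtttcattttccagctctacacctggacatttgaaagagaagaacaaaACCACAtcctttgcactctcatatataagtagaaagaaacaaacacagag

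Gzmb: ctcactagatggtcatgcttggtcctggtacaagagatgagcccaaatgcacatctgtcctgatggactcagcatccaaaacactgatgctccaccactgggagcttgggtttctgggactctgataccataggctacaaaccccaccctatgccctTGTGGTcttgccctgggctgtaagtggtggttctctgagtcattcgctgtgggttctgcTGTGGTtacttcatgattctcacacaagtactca

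Prf1: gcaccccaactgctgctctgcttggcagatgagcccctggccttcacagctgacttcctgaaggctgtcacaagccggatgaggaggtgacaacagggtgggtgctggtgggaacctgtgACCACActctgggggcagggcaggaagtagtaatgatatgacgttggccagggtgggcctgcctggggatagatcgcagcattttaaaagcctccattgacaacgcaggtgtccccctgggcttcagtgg

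Each of these promoters held the RUNX letters, and Gzmb held them in 2 places, 93 and 34 bases before its start. The fifth entry, Ccl3, held them once. Across the 32841 promoter windows of the table, 14.0% held these letters on either strand. The T-box letters TCACAC, searched because T-bet is a factor of this kind, were found in Nkg7 and Gzmb, 12 and 15 bases before the start, against 12.3% of all windows. The E-box CANNTG, the letters that E proteins bind, occurred 2 times in Nkg7, 3 in Gzma, 2 in Gzmb, 4 in Prf1 and once in Ccl3, with a median of 1 over all windows and at least 1 in 66.2%. These are matches of letters and say nothing about binding. Of the genes without a promoter entry, Ctsw lies at chr19:5465043-5468507, Klrd1 at chr6:129591782-129598775, Ccl4 at chr11:83662584-83664683 and Ccl5 at chr11:83525778-83530518 (GRCm38), all protein-coding.

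Between the libraries, cytotoxic genes were lower in the Id2-deficient cells, and Gzma was the exception. Of the 9 genes, 8 had at least 50 UMIs over both libraries and were measured (all but Ccl3), and 7 of these were at least 2-fold lower and 0 at least 2-fold higher. Over the 11084 genes measured in the same way, 4.75% were at least 2-fold lower and 5.99% at least 2-fold higher. The median log2 ratio, Id2-deficient over control, was −2.09 over the 8 genes and 0.08 over all measured genes.

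**Figure D1:**
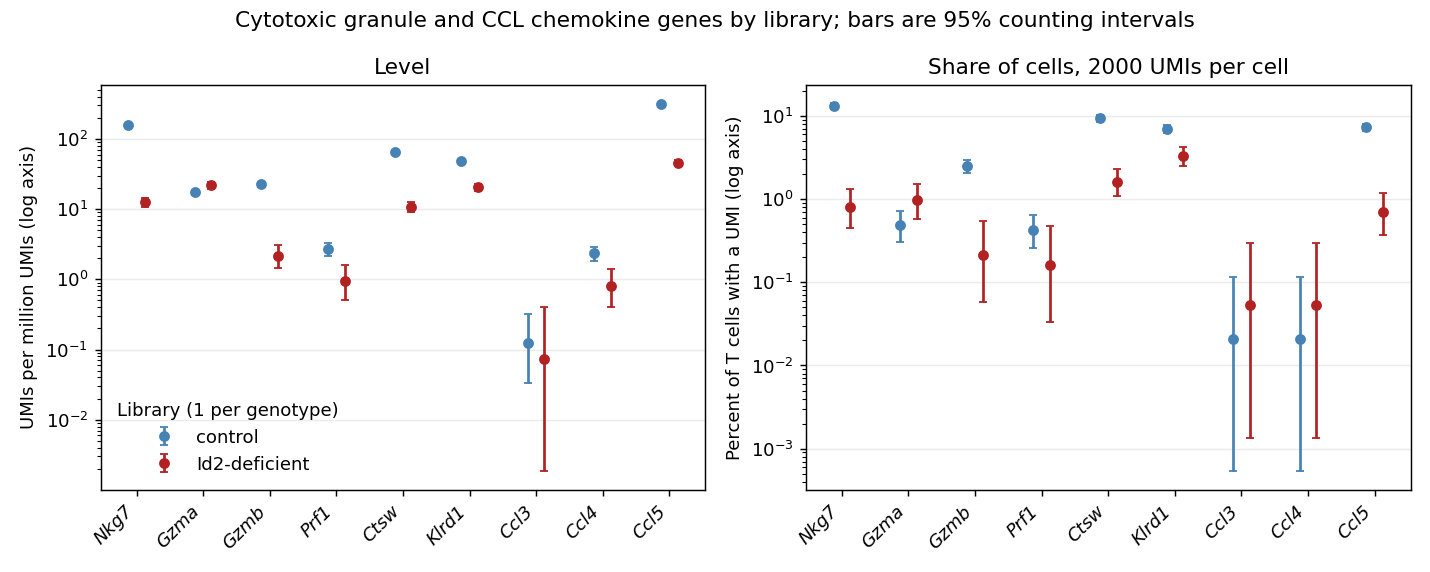
Level (left, CPM summed over T cells) and share of T cells with at least 1 UMI after each cell was thinned to 2000 UMIs (right) for the 9 genes in the control (blue) and Id2-deficient (red) library, both on log axes, with 95% counting intervals. Control values lie above Id2-deficient values for Nkg7, Gzmb, Prf1, Ctsw, Klrd1 and Ccl5 in both plots, and Gzma has the higher Id2-deficient value in both.

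Nkg7, the granule membrane protein, had 5129 UMIs in 947 control cells and 173 UMIs in 23 Id2-deficient cells. Its level was 158 CPM (154 to 163) against 12.5 CPM (10.7 to 14.5), so the Id2-deficient level was 12.7-fold lower (10.9 to 14.8). With every cell thinned to 2000 UMIs, which left 4758 control and 1859 Id2-deficient cells, 13.2% of control and 0.807% of Id2-deficient cells had an Nkg7 UMI. The cells that had it held a mean of 2.66 and 2.53 Nkg7 UMIs, which cannot fall below 1 and rests on few Id2-deficient cells.

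Ctsw, which encodes cathepsin W, had 2138 UMIs in 1018 control cells and 149 in 59 Id2-deficient cells. It stood at 66.0 CPM and 10.8 CPM, a 6.12-fold lower level (5.18 to 7.28), and the thinned shares were 9.37% and 1.61%. Klrd1, which encodes CD94, is the receptor of the set. It had 1548 UMIs in 786 control cells and 285 in 153 Id2-deficient cells, that is 47.8 CPM against 20.6 CPM, 2.32-fold lower (2.04 to 2.64). The thinned shares of Klrd1 were 6.98% and 3.28%, and 1 Id2-deficient cell held 43 of its UMIs while the next held 7.

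The 2 granzymes and perforin did not move alike. Gzmb, the granzyme that cleaves caspases, had 728 UMIs in 247 control cells and 30 in 12 Id2-deficient cells. Its level was 22.5 CPM (20.9 to 24.2) against 2.17 CPM (1.46 to 3.10), 10.4-fold lower (7.19 to 15.5). Gzma, a tryptase-like granzyme, had 567 UMIs in 38 control cells and 302 in 31 Id2-deficient cells, or 17.5 CPM and 21.8 CPM, a log2 ratio of 0.32 (0.11 to 0.52). In both libraries few cells held most Gzma: the 10 highest cells had 85.4% of the control and 92.4% of the Id2-deficient UMIs. The 2 highest Id2-deficient cells had 131 and 106 UMIs and the third had 12, while the 3 highest control cells had 77, 63 and 61. Without the highest cell of each library the log2 ratio of Gzma was −0.29 (−0.55 to −0.03), so the direction in summed UMIs rests on single cells. The thinned shares of Gzma were 0.483% (0.307% to 0.724%) in control and 0.968% (0.575% to 1.53%) in Id2-deficient cells, with overlapping intervals. Prf1, perforin, was sparse at 88 UMIs in 78 control cells and 13 in 10 Id2-deficient cells. It was 2.89-fold lower (1.60 to 5.64), at 2.72 CPM against 0.940 CPM, with a log2 ratio of −1.53 that became −0.73 (−2.76 to 0.88) in cells thinned to 1000 UMIs, and no cell of either library had more than 3 Prf1 UMIs.

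Among the chemokines, Ccl5 was abundant in the control while Ccl3 and Ccl4 were nearly absent from both libraries. Ccl5 had 10230 UMIs in 507 control cells and 632 in 27 Id2-deficient cells, 316 CPM (310 to 322) against 45.7 CPM (42.2 to 49.4), or 6.91-fold lower (6.37 to 7.50). Of the 632 Id2-deficient UMIs, 495 lay in 1 cell, and without the highest cell of each library Ccl5 stood at 309 CPM and 9.92 CPM, a log2 ratio of −4.96 in place of −2.79. The thinned shares of Ccl5 were 7.29% and 0.699%. Ccl4 had 76 UMIs in 5 control cells and 11 in 2 Id2-deficient cells, and 1 cell held 69 of the 76 and another 10 of the 11, so its log2 ratio of −1.56 compares single cells. Ccl3 had 4 UMIs in 3 control cells and 1 UMI in the Id2-deficient library, which was also the cell with 10 Ccl4 UMIs.

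A share of cells with a UMI includes RNA picked up from other cells. Cells with at least 3 UMIs of B cell markers and fewer than 3 of T cell genes served as a background, 50 control and 42 Id2-deficient cells, with medians of 3897 and 4923 UMIs. Of the 50 control B cells, 3 had Nkg7 (6.0%), 3 Klrd1, 2 Ctsw (4.0%), 1 Gzma (2.0%) and 0 Gzmb, Prf1, Ccl3, Ccl4 or Ccl5, where 0 of 50 allows a share of up to 6.0%. The upper 95% limits (Clopper-Pearson) were 16.5% for Nkg7 and Klrd1, 13.7% for Ctsw and 10.6% for Gzma. The unthinned control T cell shares of Nkg7 (19.8%), Ctsw (21.3%) and Ccl5 (10.6%) lay above these limits. Those of Klrd1 (16.4%), Gzma (0.794%), Gzmb (5.16%) and Prf1 (1.63%) did not, and are not read as a share of expressing cells. More than 1 UMI in a cell is another matter: 31 control cells had at least 5 Gzmb UMIs and 15 had at least 5 Gzma UMIs, and the Id2-deficient library had 3 and 6 such cells. In the Id2-deficient B cells 1 of 42 had Klrd1, with an upper limit of 12.6%, and 1 had Ccl4, and a count of 0 of 42 allows up to 7.14%. The Id2-deficient T cell shares of Nkg7 (1.23%), Ctsw (3.15%), Klrd1 (8.16%), Gzma (1.65%), Gzmb (0.640%) and Ccl5 (1.44%) lie below these limits. With 42 B cells, such shares cannot be told apart from background. At least 5 UMIs were held by 15 Id2-deficient T cells for Nkg7, 12 for Ctsw, 8 for Ccl5 and 6 for Klrd1.

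A single Id2-deficient cell carried 8 of the 9 transcripts. It had 6359 UMIs in all, among them 30 of Nkg7, 106 of Gzma, 8 of Gzmb, 3 of Prf1, 4 of Ctsw, 3 of Klrd1, 1 of Ccl4 and 495 of Ccl5. It also had 14 Trbc2, 2 Cd8a, 2 Id2, 0 Cd4 and 1 Cx3cr1 UMIs, and 1.82% of its UMIs were from mt- genes, below the library median. Without this cell the log2 ratios were −4.99 for Ccl5, −3.94 for Nkg7 and −0.30 for Gzma, an exclusion chosen after its values were seen. The Id2-deficient cell with the most Gzma was of another kind, with 131 Gzma UMIs beside 18 Trac and 3 Cd4 UMIs and 0 of Nkg7, Gzmb, Prf1 and Ccl5.

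The mt- share moved with Nkg7 inside each library and between them. In the control, 23.9% of the 3252 cells below 2% mt- UMIs had Nkg7, against 12.5% of the 1322 cells at 2% to 3% and 2.86% of the 210 cells above 3%. In the Id2-deficient library 1621 of 1874 cells lay above 3%, and 0.864% of them had Nkg7. Within 2% to 3%, with 1322 control and 229 Id2-deficient cells, Nkg7 stood at 103 CPM against 27.8 CPM (log2 ratio −1.89, −2.28 to −1.53). Ctsw stood at −1.55, Gzmb at −1.61 and Ccl5 at −2.59. Prf1 stood at −2.42, on 17 control UMIs and only 1 Id2-deficient UMI. Klrd1 stood at −0.50 (−0.91 to −0.11) and Gzma at −0.67 (−1.51 to 0.09). In this window, chosen after the data were seen, 5 of the genes, with Prf1 among them, were at least 2-fold lower. The ratios of Nkg7, Gzmb, Ctsw, Ccl5 and Klrd1 were closer to 0 than over all cells. The part of the mt- share in the difference between libraries was not tested beyond these values.

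**Figure D2:**
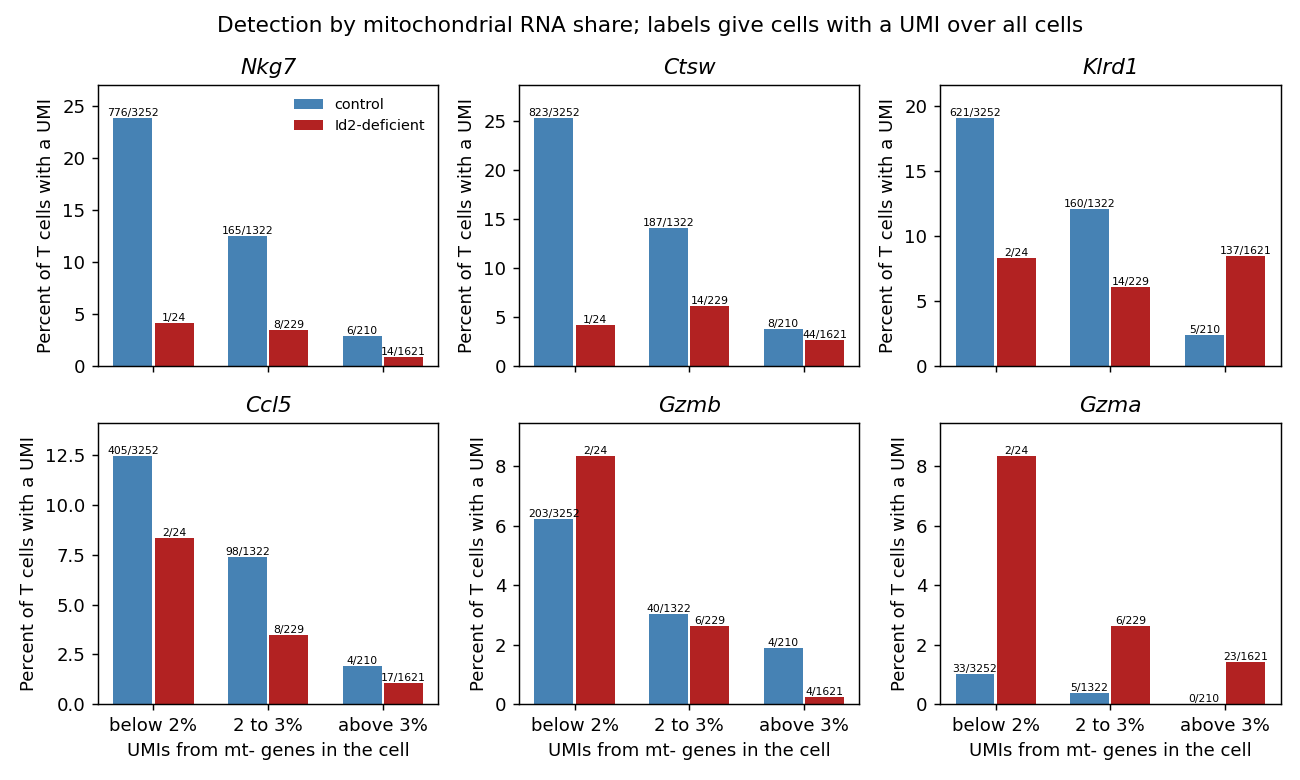
Percent of T cells with at least 1 UMI of Nkg7, Ctsw, Klrd1, Ccl5, Gzmb or Gzma by the share of the cell's UMIs from mt- genes (below 2%, 2% to 3%, above 3%), for the control (blue) and Id2-deficient (red) library, with the number of cells over all cells above each bar. Nkg7 falls from 23.9% to 2.86% across the 3 control bars, and the Id2-deficient bars below 2% rest on 24 cells.

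Markers of other cell types also differed between the libraries. Summed neutrophil markers stood at 53.6 CPM and 2.46 CPM, red cell markers at 191 CPM and 4.12 CPM, macrophage or monocyte markers at 42.5 CPM and 13.6 CPM, and the 8 NK cell markers at 34.7 CPM and 28.4 CPM in the control and Id2-deficient cells. A single control cell held 93.7% of the UMIs of Hbb-bs, the most abundant red cell marker, and of the 5 measured NK cell markers 3 were at least 2-fold lower and 1 higher. Among the 2305 control and 466 Id2-deficient cells without a UMI of B cell, neutrophil, macrophage, basophil or red cell markers, Nkg7 was as far apart, with a log2 ratio of −3.91 (−4.37 to −3.49). Ccl5 stood at −4.88 and Gzma at −2.68 (−3.70 to −1.83) there. Among cells without a Cd8a or Cd8b1 UMI the ratio was −4.56 for Nkg7 and −5.20 for Ccl5.

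Detection together in the same cell was asked next, in cells thinned to 2000 UMIs. In the control, Nkg7, Ccl5, Klrd1, Ctsw and Gzma shared cells. Cells with Gzmb had Nkg7 and Ccl5 about as often as cells without it, when cells with and without Trdc were pooled. Of 347 control cells with Ccl5, 66.6% (61.3% to 71.5%) had Nkg7, against 8.98% of the cells without Ccl5. Of 332 cells with Klrd1, 47.9% had Nkg7 (10.6% of the rest), and of 446 cells with Ctsw, 48.0% had Nkg7 (9.58% of the rest). Read from Nkg7, 36.8% of its 627 cells had Ccl5, 34.1% Ctsw and 25.4% Klrd1. Only 23 cells had Gzma, and 16 of them (69.6%, 47.1% to 86.8%) had Nkg7 and 16 had Ccl5. Of 119 cells with Gzmb, 14.3% (8.55% to 21.9%) had Nkg7, next to 13.1% of the cells without Gzmb, and 8.40% had Ccl5, next to 7.26%. Prf1 was found in 20 cells, of which 9 had Nkg7 and 1 had Gzmb.

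**Figure D3:**
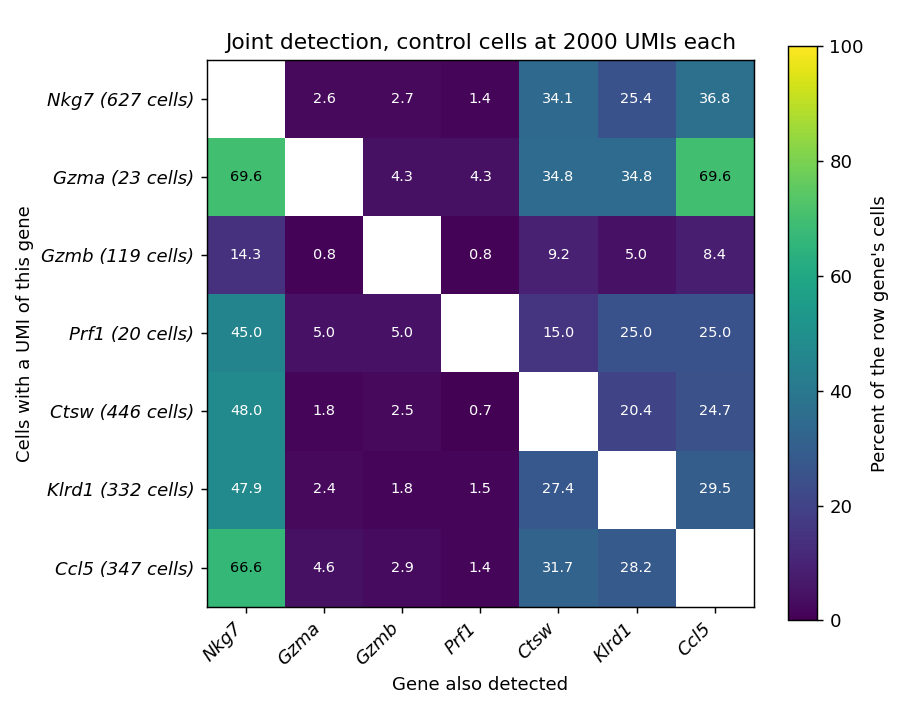
Joint detection in 4758 control T cells thinned to 2000 UMIs: each square gives the percent of the row gene's cells that also had a UMI of the column gene, with the number of row cells in brackets. The Gzma and Ccl5 rows reach 69.6% and 66.6% in the Nkg7 column, while the Gzmb row stays at 14.3% or below.

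Few cells carried several of the transcripts at this depth. In the control 3554 cells had 0 of the 9 genes, 733 had 1, 292 had 2, 123 had 3, 50 had 4 and 6 had 5. In the Id2-deficient library 1739 had 0, 101 had 1, 16 had 2, 2 had 3 and 1 had 7. At least 2 genes were thus found in 9.90% of control cells (9.06% to 10.8%), against 1.02% in the Id2-deficient library (0.616% to 1.59%), and at least 3 in 3.76% and 0.161%. The 3 Id2-deficient cells with at least 3 genes had a median depth of 16011 UMIs, above the 6341 UMIs of those with none, whereas the 179 such control cells had 4565 UMIs, below the 5455.5 UMIs of those with none. Doublets were not called, and their part in joint detection was not tested.

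The 179 control cells with at least 3 genes were set against the 3554 with none for genes outside the set. Of 10106 other genes with a ratio in this comparison, 3.46% were at least 2-fold higher and 8.57% at least 2-fold lower in the cells with 3 or more. Of 13 killer cell receptor genes measured there 10 were higher and 1 lower by that measure, of 9 transcription factor genes of cytotoxic cells 4 were higher and 0 lower, and of 29 genes of T cell identity 2 were higher and 17 lower. S1pr5, a receptor for exit from tissue, had 79 UMIs against 1 (log2 ratio 10.89, 8.37 to 16.21). Klre1, a killer-cell lectin receptor, had 67 UMIs against 2 (9.65, 7.74 to 12.72). Klrg1, a receptor of terminal effector cells, stood at 185 CPM against 1.09 CPM, and Cx3cr1, the fractalkine receptor, at 223 CPM against 1.00 CPM. Tbx21, which encodes T-bet, was higher (63.0 CPM against 4.30 CPM; log2 ratio 3.87, 3.40 to 4.34), as were Zeb2, a factor of terminal effector cells (3.78), and Fasl, a death ligand (2.65, 2.10 to 3.17). Id2 stood at 489 CPM against 299 CPM (0.71, 0.58 to 0.84), and Crtam, the receptor counted as lower, had 1 UMI against 55 (−1.20, −6.53 to 1.34). Among the identity genes, Ccr6, a chemokine receptor of Th17 cells, had 7 UMIs in the 179 cells and 4121 in the cells with none (log2 ratio −4.62, −5.93 to −3.57). Il22, a Th17 cytokine, had 1 and 769 UMIs (−5.00, −10.31 to −2.52), with 420 of the 769 in 1 cell. Il23r, the interleukin 23 receptor, had 2 and 639 (−3.74, −6.79 to −1.88). Il17a and Il17f had 0 UMIs in the 179 cells, which allows a share of up to 1.68%, and 260 and 570 UMIs in the cells with none, so they were at least 3.62-fold and 7.93-fold lower. Of the 570 Il17f UMIs, 172 lay in 1 cell. Cd4 had a UMI in 60.9% of these 179 cells and 54.0% of the others, Cd8a in 3.91% and 0.253%, and Trdc in 1.68% and 20.2%.

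Of 10467 genes found in at least 1% of control T cells, the 8 whose log level correlated best with the log of the summed level of the 9 genes were Hopx (r = 0.51), AA467197 (0.50), Klrg1 (0.48), Il18rap (0.48), Cx3cr1 (0.46), Ly6c2 (0.44), Bhlhe40 (0.43) and Ifng (0.43). These r describe 4784 cells of 1 library that share depth differences, and 7 of the 8 genes were also among the best 8 after thinning, all but Bhlhe40. The genes were ranked in the control alone, so their ratios between the libraries are a description. Nearest to 0 was Hopx, a homeodomain protein of effector cells, at 161 CPM against 41.7 CPM (log2 ratio −1.94), and the farthest was Cx3cr1, with 394 UMIs against 6 (−4.81, −6.26 to −3.67).

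Control cells were then split by a UMI of Cx3cr1, a receptor of terminal effector cells. The 143 cells with it were 2.99% of control T cells and had a median of 4767 UMIs, against 5482 UMIs in the 4641 without. Of the 7 measured genes with a ratio, 6 were at least 2-fold higher in the cells with Cx3cr1 (median log2 ratio 2.99), while 4.52% of 10382 genes were. Nkg7 stood at 1388 CPM against 118 CPM, 11.7-fold higher (log2 ratio 3.55, 3.46 to 3.64), and had a UMI in 132 of the 143 cells. Ccl5 stood at 5077 CPM against 161 CPM, 31.5-fold higher (30.3 to 32.7), and these 143 cells held 50.5% of all control Ccl5 UMIs. Gzma stood at 467 CPM against 2.90 CPM and 84.0% of its UMIs lay in these cells, but within only 15 of them. Klrd1 was 7.90-fold higher (6.96 to 8.95), Prf1 7.92-fold (4.44 to 13.5) and Ctsw 3.52-fold (3.04 to 4.05). Gzmb differed less, at 32.4 CPM against 22.1 CPM (log2 ratio 0.55, −0.00 to 1.05). Its ratio ran from −0.16 to 1.65 over 12 other settings, so it depends on the setting. Only 3 of the 143 cells had Trdc, so nearly all Trdc cells were on the other side. In control cells with no Cx3cr1, Ifng or Trdc UMI, Gzmb stood at 8.05 CPM. Ccl4 had 0 UMIs in the cells with Cx3cr1, where 0 of 143 cells allows up to 2.10%.

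The split by Ifng, the interferon gamma gene of Th1 cells, gave 391 cells with a UMI and 4393 without, at medians of 5840 and 5447 UMIs. In the cells with Ifng 6 of 8 measured members of the set exceeded 2-fold upwards and 1 downwards (median log2 ratio 1.84), against 1.64% and 4.91% of 10536 genes. Nkg7 stood at 721 CPM against 98.2 CPM (log2 ratio 2.88, 2.80 to 2.96), Ccl5 at 1495 CPM against 190 CPM (2.98) and Ctsw at 210.0 CPM against 50.6 CPM (2.05). Klrd1 (1.64), Gzma (2.51) and Prf1 (1.37, 0.55 to 2.11) were higher as well. Gzmb was lower, at 14.4 CPM against 23.3 CPM (−0.70, −1.17 to −0.26), short of 2-fold. The Gzmb ratio was 0.57 among cells without a Trdc UMI and 0.21 in cells thinned to 2000 UMIs, so its direction depends on the setting. Ccl4, the gene counted as lower, had 2 UMIs in the cells with Ifng and 74 in those without, 69 of them in 1 cell, and its log2 ratio of −1.98 became 1.90 without that cell.

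The Cx3cr1 and Ifng splits overlap, since 71 of the 143 Cx3cr1 cells also had Ifng. Sorting control cells into 4 states set Gzma apart. Gzma stood at 413 CPM (359 to 472) in the 71 cells with both, 522 CPM in the 72 with Cx3cr1 alone, 1.53 CPM in the 320 with Ifng alone and 3.02 CPM in the 4321 with neither. In the same states Ccl5 stood at 4759, 5398, 858 and 97.8 CPM, Klrd1 at 327, 294, 83.7 and 35.2 CPM and Nkg7 at 1605, 1171, 548 and 79.3 CPM. Ifng alone thus went with higher Ccl5, Klrd1 and Nkg7 than neither, but not with higher Gzma. Ctsw stood at 196 CPM (180 to 214) with Ifng alone, 150 CPM (118 to 187) with Cx3cr1 alone and 280 CPM with both, and the first 2 intervals overlap. The 463 cells with either gene were 9.68% of control T cells and held 55.5% of the Nkg7, 72.5% of the Ccl5, 84.7% of the Gzma and 34.3% of the Ctsw UMIs, but 7.83% of the Gzmb UMIs.

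**Figure D4:**
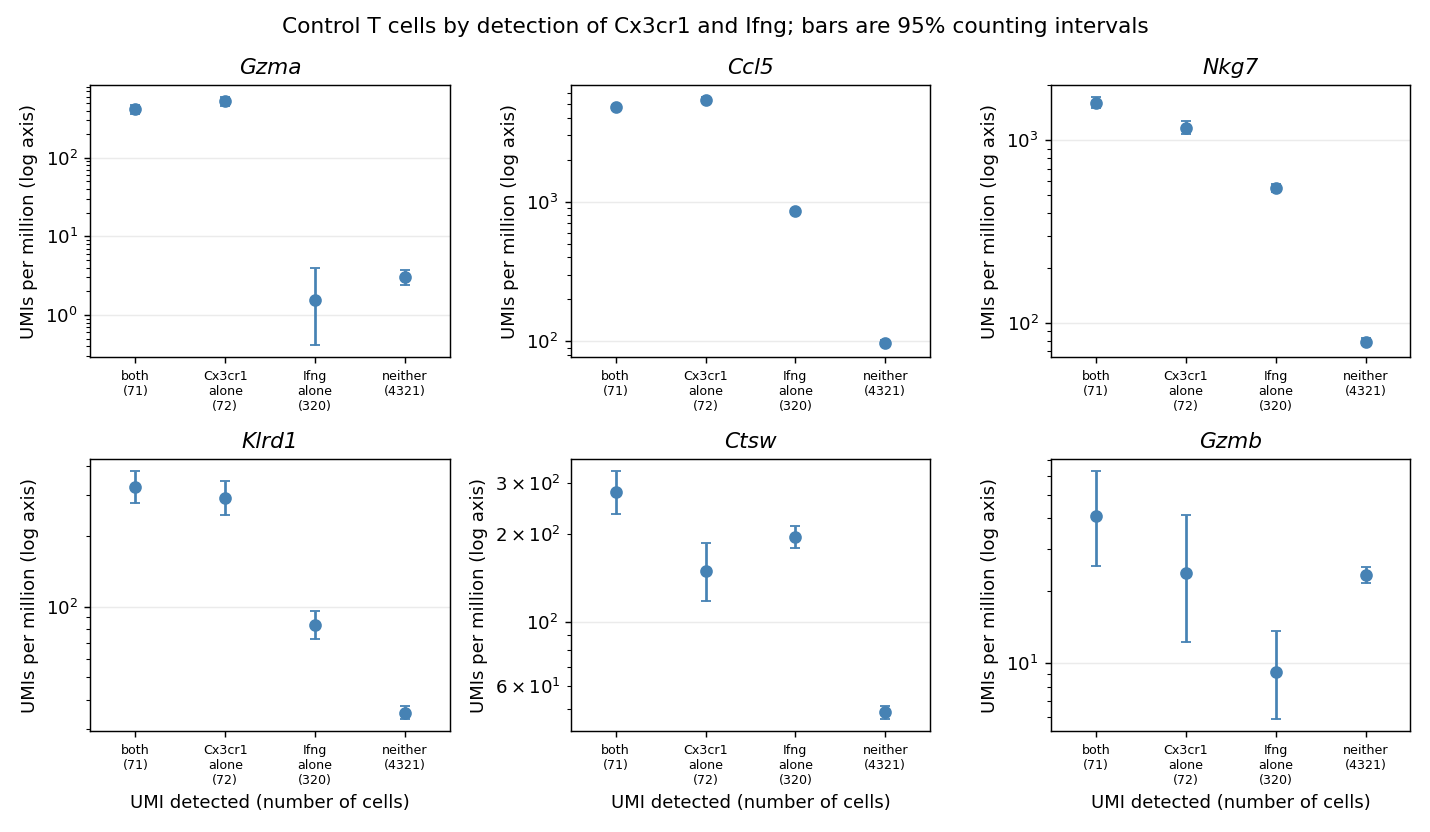
Level (CPM, log axes that differ between plots) of Gzma, Ccl5, Nkg7, Klrd1, Ctsw and Gzmb in control T cells with a UMI of both Cx3cr1 and Ifng, of either alone or of neither, with 95% counting intervals and the number of cells in brackets. Gzma is at 413 and 522 CPM in the states with Cx3cr1 and at 1.53 and 3.02 in those without, while Ctsw with Ifng alone (196) and with Cx3cr1 alone (150) have overlapping bars.

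The split by Trdc, the constant region of the δ chain of the γδ T cell receptor, turned the order around. It gave 879 cells with a UMI and 3905 without, at medians of 5807 and 5371 UMIs. Of the 8 genes 2 were at least 2-fold higher and 6 at least 2-fold lower in the cells with Trdc (median log2 ratio −2.15), against 3.48% and 5.2% of 10536 genes. The 2 higher genes were Gzmb and Prf1. Gzmb stood at 80.1 CPM against 8.72 CPM, a log2 ratio of 3.20 (2.97 to 3.43), and the cells with Trdc held 68.7% of its UMIs; after thinning, 8.32% of cells with Trdc and 1.19% of cells without had Gzmb. Prf1 stood at 7.04 CPM against 1.68 CPM (2.07, 1.43 to 2.70), with 44 UMIs on each side, and its ratio was 0.39 in cells thinned to 1000 UMIs. Nkg7 was lower, at 40.0 CPM against 187 CPM (−2.22, −2.41 to −2.04), as were Klrd1 (−2.19), Ccl5 (−2.97) and, barely past 2-fold, Ctsw (−1.01, −1.22 to −0.82). Gzma had 0 of its 567 UMIs in the 879 cells, which allows a share of up to 0.341%, and with 3 counts taken for the 0 it was at least 45.1-fold lower. Ccl4 had 4 UMIs against 72, and its log2 ratio of −2.10 became 2.48 without the cell that held 69.

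The cells with Gzmb and those with Nkg7 differed in their receptor genes. Without thinning, 184 control cells had Gzmb and no Nkg7, and 122 of them (66.3%) had Trdc, while 884 had Nkg7 and no Gzmb, and 36 of them (4.07%) had Trdc. Both were found in 63 cells, of which 17.5% had Trdc, and neither in 3653, of which 19.4% had it. Among cells without Trdc, 52 had both, 62 Gzmb alone, 848 Nkg7 alone and 2943 neither. Among cells with Trdc the same counts were 11, 122, 36 and 710. On each side a larger share of the cells with Gzmb than of those without it had Nkg7, in counts not evened out for depth. Tcrg-C1, of the γ chain, stood at 369 CPM in the cells with Gzmb alone and 18.7 CPM in those with Nkg7 alone. Cd4 stood at 73.2 CPM and 205 CPM in the same cells. Ifng was on the side of Nkg7, at 114 CPM against 5.78 CPM in the cells with Gzmb alone.

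Cd8b1 detection made the smallest difference of the 4 splits in the median over the genes. The 148 control cells with a UMI had a median of 6664 UMIs against 5446.5 in the 4636 without. Of the 8 genes 2 were at least 2-fold higher (median log2 ratio 0.62, with Ccl4, at 0 UMIs, entered at its bound), against 1.39% of 10493 genes. These were Gzma (62.5 CPM against 15.5 CPM; 2.01) and Prf1 (9 UMIs against 79; 1.36, 0.18 to 2.36). The Gzma value rests on 1 cell with 77 UMIs, which also had 7 Cd8b1 and 7 Cx3cr1 UMIs, and without it the ratio was −1.24. Nkg7 stood at 240.0 CPM against 155 CPM (0.63, 0.47 to 0.79), Ccl5 at 603 CPM against 303 CPM (0.99, 0.89 to 1.10), Klrd1 at 0.61 and Ctsw at 0.44, and Gzmb at −0.58 (−1.28 to 0.05). Only 22 of the 148 cells had 3 or more Cd8b1 UMIs, and with that limit the median was 1.94.

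**Figure D5:**
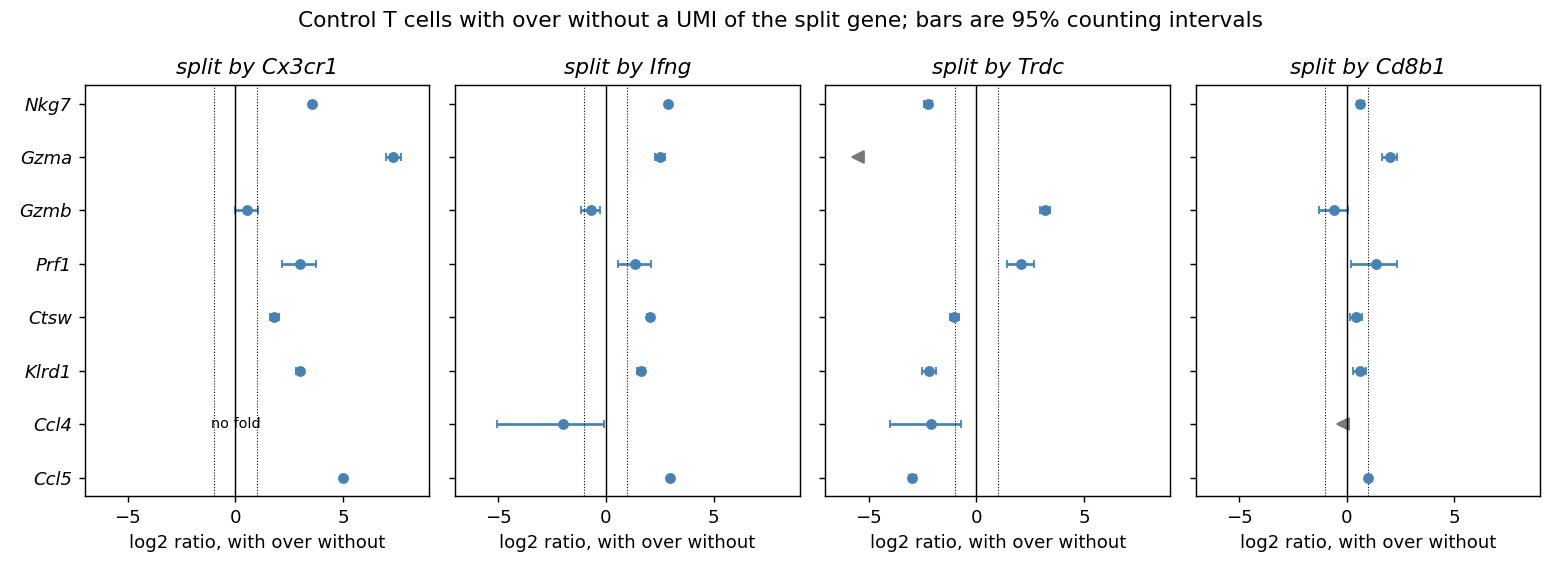
Log2 ratio of level in control T cells with over without a UMI of Cx3cr1, Ifng, Trdc or Cd8b1, for the 8 measured genes, with 95% counting intervals, dotted lines at 2-fold and grey arrows for bounds from 0 UMIs. Nkg7, Klrd1 and Ccl5 lie to the right under Cx3cr1 and Ifng and to the left under Trdc, where Gzmb (3.20) and Prf1 (2.07) lie to the right.

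Within the Id2-deficient library the splits left few cells, 5 with Cx3cr1, 21 with Ifng, 167 with Trdc and 65 with Cd8b1. Cx3cr1 had 6 UMIs there against 394 in the control, and Ifng 41 against 1073. Gzmb was lower in the Id2-deficient library on both sides of the Trdc split: at 11.1 CPM against 80.1 CPM in cells with Trdc (log2 ratio −2.85, −3.69 to −2.11) and at 1.20 CPM against 8.72 CPM in cells without (−2.86). Its unthinned share of the cells with Trdc was 3.59% (6 of 167) against 15.1% (133 of 879). Nkg7 was lower in cells with Ifng, at 172 CPM against 721 CPM (−2.07, −2.66 to −1.54), with 16 of the 28 Id2-deficient UMIs in 1 cell, in cells with Cd8b1, at 100.3 CPM against 240.0 CPM (−1.26), and in cells without Ifng (−3.21). Ccl5 in cells with Cd8b1 stood at 29.9 CPM against 603 CPM (−4.33), and all 17 Id2-deficient UMIs lay in 1 cell. Klrd1 was higher in the Id2-deficient cells with Ifng, at 270 CPM against 123 CPM (1.13), but 43 of those 44 UMIs lay in 1 cell. Gzma was higher in the Id2-deficient library in cells without Cx3cr1, at 14.2 CPM against 2.90 CPM (4.90-fold, 3.81 to 6.36), and in cells without Ifng (1.81-fold, 1.55 to 2.12). A single cell held 131 of the 196 Id2-deficient Gzma UMIs without Cx3cr1. The same cell held 131 of the 298 without Ifng, and another held 106 of these. In cells with Trdc Gzma had 13 UMIs against 0, at least 20.1-fold higher, but these lay in 2 cells and 12 of them in 1 cell. In cells with Ifng Gzma was lower (4 UMIs against 215, log2 ratio −1.49, −3.38 to −0.11). However, 211 of the 215 control UMIs lay in the 71 cells that also had Cx3cr1. In cells with Ifng and no Cx3cr1 the order was the reverse, at 25.2 CPM in the Id2-deficient library and 1.53 CPM in the control. Each of these 2 values rests on 4 UMIs in 2 cells. Of the 5 Id2-deficient cells with Cx3cr1, 1 held all 106 Gzma, all 8 Gzmb and 495 of 503 Ccl5 UMIs, and these genes were 5.29-fold, 5.75-fold and 2.31-fold higher there than in the control cells with Cx3cr1.

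Other genes of the cytotoxic pathway, from lists chosen with earlier results known, differed in how many members were lower. Of 13 measured killer cell receptor genes 7 were at least 2-fold lower and 1 higher in the Id2-deficient library (median log2 ratio −1.30), against 4.75% and 5.99% of all 11084 measured genes, whose median was 0.08. Klrg1 stood at 11.9 CPM against 1.01 CPM (−3.55, −4.43 to −2.78), Klre1 had 92 UMIs against 4 (−3.29) and Il12rb2, of the interleukin 12 receptor, 125 against 9 (−2.57). Klrb1c, which encodes NK1.1, was higher at 16.3 CPM against 6.88 CPM in the control (1.25), and Cd160, another receptor of killer cells, stood at 0.87. Klrc1, the NKG2A partner of CD94, named after its value was seen, stood at 22.1 CPM against 8.46 CPM (−1.38, −1.68 to −1.10).

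Of 8 measured transcription factor genes of cytotoxic cells other than Id2, the deleted gene, 4 were at least 2-fold lower and 0 higher (median −1.12), against 4.75% and 5.99% of all genes. The lowest were Tbx21 (10.2 CPM against 2.17 CPM; −2.24, −2.83 to −1.70) and Bhlhe40, a regulator of cytokine genes (110 CPM against 26.8 CPM; −2.04). The highest were Stat4, which acts below interleukin 12 (0.35), and Zeb2 (0.26). Runx3, of the family whose letters are marked in the promoters and named for that, stood at 102 CPM against 70.5 CPM (−0.53).

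Of 15 genes that load and release granules 0 were at least 2-fold lower and 1 was higher (median log2 ratio 0.20), counts near the 4.75% and 5.99% of all genes. The lowest were Ctsd, a lysosomal protease (−0.77), Ctsc, which activates granzymes (49.9 CPM against 38.3 CPM; −0.38, −0.53 to −0.24), and Unc13d, which primes granules for release (−0.11, −0.26 to 0.05). The highest were Ctsl, a lysosomal protease (152 UMIs against 260; 2.00), and Gnptab, of the lysosomal sorting pathway (0.90). Among other granzymes Gzmd, Gzme, Gzmf, Gzmg and Gzmn had 0 UMIs in both libraries, and the measured ones, Gzmc (91 UMIs against 1) and Gzmm (66 against 8), were both at least 2-fold lower, with 40.7% of the control Gzmc UMIs in 1 cell.

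Of 4 death ligand genes 1 was at least 2-fold lower and 0 higher (median −0.34), beside 4.75% and 5.99% of all genes for these and the chemokine genes. Fasl stood at 9.14 CPM against 3.04 CPM (−1.59, −2.09 to −1.12), Tnfsf10, which encodes TRAIL, at −0.62, Tnf at −0.07 and Lta at −0.06. Ccr1, a receptor of CCL3 and CCL5, had 120 UMIs against 11 (−2.22, −3.26 to −1.33). Of 4 other measured chemokines 2 were at least 2-fold lower and 0 higher, Ccl1 (513 UMIs against 1) and Ccl6 (48 against 4), with 48.3% of the control Ccl1 UMIs in 1 cell, while Cxcl10 stood at −0.45 and Ccl20 at −0.39.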

How the data were processed

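Single-cell 3′ UMI counts of CD4+ YFP+ cells were used, 1 library per genotype. The deposited tables hold raw counts per gene and barcode that the authors made with Cell Ranger, version 5.0.1 per the file headers and 1.3 per the submitters' processing notes, against mm10. The barcodes had been filtered before deposit by a rule not given in the sources used here. UMIs were summed over T cells and divided by the library's sum. CPM has exact Poisson intervals, ratios exact conditional binomial intervals and shares Clopper-Pearson intervals, all at 95% and for counting error only. A floor of 3 counts, over the group of cells, stood in for 0, and no fold was given where both groups had 3 or fewer or the bound had no direction. Cells were thinned with a fixed seed, and 26 control and 15 Id2-deficient cells below 2000 UMIs were left out. The code was checked on made-up counts. Genes outside the set were named by rule: in each list the up to 3 lowest and 2 highest measured genes by log2 ratio, or all where 4 or fewer were measured, and the 8 genes best correlated with the set; genes of cell identity were added by role. The genes, lists and splits were chosen with earlier results of these data known. Promoters came from RefSeq (GRCm38.p6) and gene positions from the GRCm38 annotation. Python 3.11.15, numpy 2.4.6, scipy 1.17.1, pandas 2.3.3 and matplotlib 3.10.9 were used. Some genes of these lists are not reported here.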

Additional observations from a re-analysis of the deposited data

How the results depend on the processing

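The count of genes at least 2-fold lower in the Id2-deficient library was 5 among cells with 2% to 3% mt- UMIs, 6 with cells thinned to 1000 UMIs, 8 among cells without a UMI of other cells' markers, and 7 under each of the other settings tried. The median log2 ratio over the genes, −2.09, was −2.85 without Trdc cells, −1.61 at 2% to 3% mt- UMIs, −2.89 thinned to 2000 UMIs and −2.98 with cells weighted equally. The median by Cx3cr1 was 3.85 thinned to 1000 UMIs, that by Ifng 1.62 without cells with other cells' markers, and that by Trdc −2.84 with equal weights and −2.57 with at least 3 Trdc UMIs. The median by Cd8b1 was 0.89 without the 4% of cells with the most UMIs, 1.51 and 1.57 thinned to 2000 and 1000 UMIs, and 1.94 with at least 3 Cd8b1 UMIs. Without the highest cell of a gene, Ccl4 turned to 1.90 by Ifng and 2.48 by Trdc, and Gzma to −1.24 by Cd8b1. Of 103 values of single genes between libraries 44 moved beyond their counting interval. Of 344 values by split 115 moved in this way, and another 3 changed direction. Only ratios of at least 2-fold in the main setting were counted as changing direction. Smaller ratios changed sign too: Gzma between libraries ran from −2.68 to 0.64. Gzmb ran from −0.70 to 0.75 by Ifng, −1.04 to 0.86 by Cd8b1 and −0.16 to 1.65 by Cx3cr1. The cause of these shifts was not tested. No paired analysis was possible because each genotype has 1 library. Settings chosen after seeing the data were the 2% to 3% window, the exclusion of the Id2-deficient cell with 8 of the genes and the limit of 3 UMIs of the split gene. Depth limits Ccl3, Ccl4 and Prf1 most, whose Id2-deficient values rest on 1, 11 and 13 UMIs.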
